A study of Rattus norvegicus with 4 samples.

Results

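The receptors for the monoamines (serotonin, dopamine, noradrenaline and adrenaline), for histamine and for acetylcholine were described by the m6A peaks on their transcripts in the arcuate nucleus (ARC) of the rat hypothalamus. Members were chosen by gene symbol alone (Htr, Drd, Adra, Adrb, Hrh, Chrm and Chrn genes), with earlier results of these data known. No measured value was part of the rule. Of 53 RefSeq symbols of this form, 41 had a listed m6A peak, among 14750 genes with a listed peak or region. They were 11 serotonin, 3 dopamine, 8 adrenergic, 3 histamine, 5 muscarinic and 11 nicotinic receptor genes.

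m6A (N6-methyladenosine) is a base modification of mRNA, placed mostly near stop codons and in long exons, that is known to affect how long an mRNA lasts and how it is translated. Monoamine, histamine and muscarinic acetylcholine receptors are G protein coupled, except the serotonin receptors Htr3a and Htr3b, which are ion channels. Among the coupled receptors, the Gq class raises intracellular calcium, the Gs class raises cyclic AMP, and the Gi class lowers it. Nicotinic receptors are ion channels built from several subunits that open when acetylcholine binds. In the ARC these receptors receive serotonin, noradrenaline, histamine and acetylcholine inputs to neurons that govern feeding, growth hormone, prolactin and reproduction, and the ARC itself holds dopamine neurons that restrain prolactin release.

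The study compared normally developing female Sprague-Dawley rats at 3 weeks (21 days), before puberty, with rats at 5 weeks (35 days), in early puberty, to ask how m6A in the ARC differs around puberty onset. The ages were read from the library names together with the text of the study. ARC tissue of 3 rats was pooled at each age, and each pool gave 1 input library of poly(A) RNA and 1 library of fragments pulled down with an m6A antibody (IP), 4 libraries in all. With 1 pool per age there were no replicates, so no difference between the ages has an error or a test, and every enrichment below is the authors' value from 1 IP and 1 input library.

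Enrichment is the log2 ratio of IP over input at a peak, so a value of 3 is an 8-fold enrichment. Differences are given as 5 weeks minus 3 weeks on the log2 scale, and a peak is called weaker or stronger where the ratio between the ages is at least 2-fold. A bulk pool averages over its cells, so a different mix of the cells that carry a transcript and a different level of m6A within the same cells cannot be told apart. Over all genes the 3-week list held 29653 peaks (median log2 enrichment 3.17) and the 5-week list 33056 (median 2.81). Depth per library is unknown, and no source used here gives the scaling between the libraries of the ages.

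All 41 receptor genes carried m6A at 3 weeks, and 36 of them were listed again at 5 weeks. None of the 36 receptor genes listed at 5 weeks was listed at that age alone, beside 1252 of the 14036 genes listed at 5 weeks. The 5 genes listed at 3 weeks alone were Adra1d, Chrna2, Chrna5, Chrnb4 and Htr5b, which is 12.2% of 41 (95% Wilson interval 5.32% to 25.5%), beside 5.2% of the 13485 genes listed at 3 weeks. Of these, Adra1d (a Gq-coupled adrenergic receptor) had 2 peaks at 3 weeks and the other 4 had 1 peak each. Among all genes with 1 peak at 3 weeks, 10.5% had none at 5 weeks. Chrna5 and Chrnb4, which encode nicotinic subunits found together with Chrna3 in autonomic ganglia and the habenula, lie in the same cluster on chromosome 8 as Chrna3, which was listed at both ages. The 12 symbols with no listed peak at either age were Adrb3, Drd3, Drd4, Hrh4, Htr2b, Htr3a, Htr3b, Chrna1, Chrna9, Chrna10, Chrnd and Chrne. The lists hold no transcript levels, so a gene without a peak is not thereby a gene without a transcript.

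At 3 weeks the 75 receptor peaks had a median log2 enrichment of 3.94 (15.3-fold), above the median of 3.17 over all peaks. At 5 weeks the 86 receptor peaks had a median of 3.05 (8.25-fold), beside 2.81 over all peaks. Muscarinic peaks had the highest median of any class at both ages, 5.01 at 3 weeks over 11 peaks and 3.89 at 5 weeks over 12 peaks. Alpha adrenergic peaks had the lowest, 3.71 over 14 peaks and 2.66 over 16 peaks, though nicotinic peaks at 3 weeks (3.72) were nearly as low. The number of peaks per listed gene averaged 1.83 at 3 weeks and 2.39 at 5 weeks, beside 2.20 and 2.36 over all genes. Receptor genes with a single peak made up 46.3% at 3 weeks and 22.2% at 5 weeks, beside 40.5% and 36.4% of all genes.

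**Figure D1:**
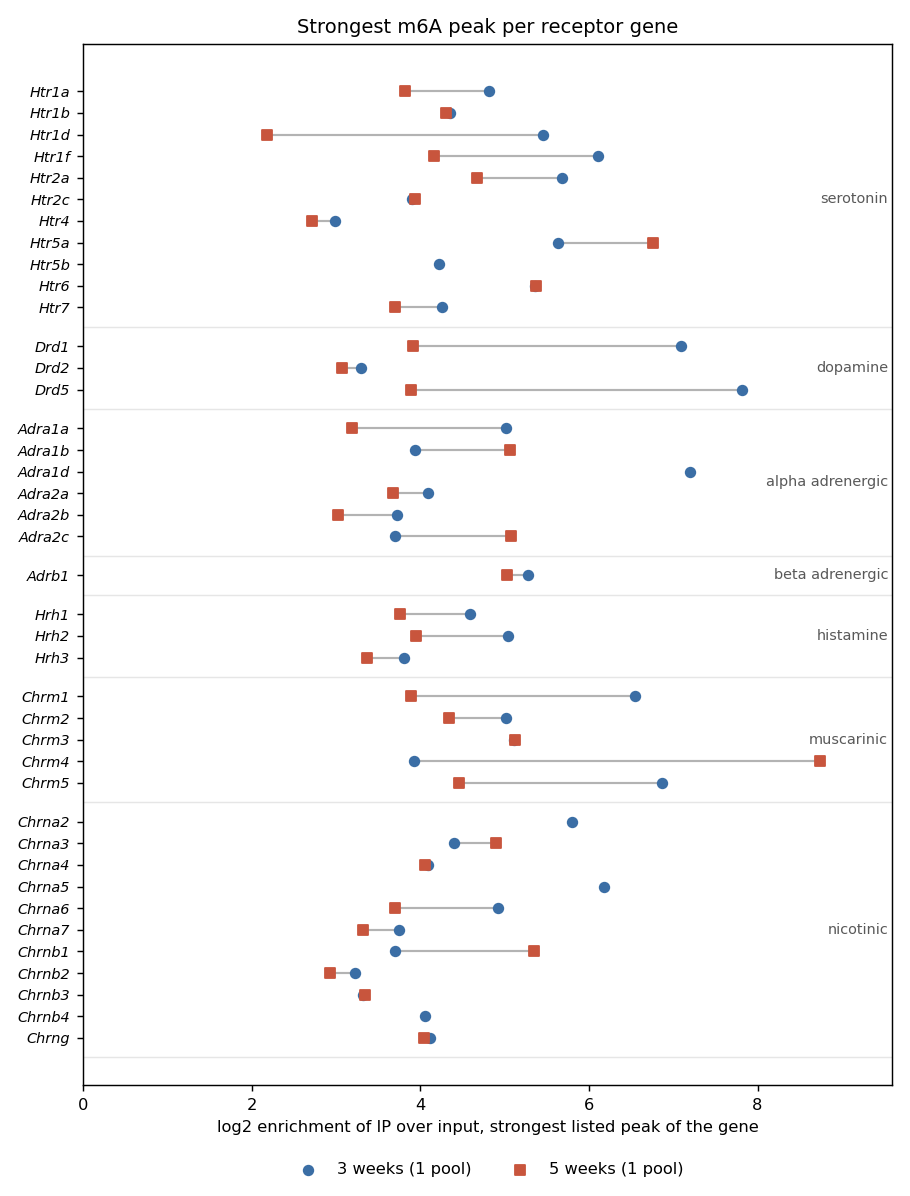
The strongest listed m6A peak of 40 receptor genes at 3 weeks (blue circles) and 5 weeks (red squares), as log2 enrichment of IP over input (x axis), 1 pool per age, with a line joining the ages of a gene. Most squares lie left of their circles; Chrm4, Htr5a, Adra1b, Adra2c, Chrnb1 and Chrna3 lie clearly to the right, and 5 genes have a circle alone.

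The strongest single peaks belonged to dopamine, adrenergic and muscarinic receptors. Drd5, a Gs-coupled dopamine receptor with high affinity for dopamine, had the strongest receptor peak at 3 weeks, an exonic peak of 200 bases with a log2 enrichment of 7.82 (chromosome 14, positions 72490547 to 72490746, coordinates as listed). Adra1d followed with 7.19 in its 3' UTR, and Drd1, the Gs-coupled dopamine receptor abundant in striatum, with 7.10 at its start codon. At 5 weeks the strongest was Chrm4, a Gi-coupled muscarinic receptor, with 8.74 in an exonic peak of 275 bases. The caller's adjusted p was on the whole less small for such very high values, though not for each of them. The 8 peaks above a log2 enrichment of 6 at 3 weeks had a median adjusted p of 2.93e-11 (smallest 2.13e-62), from the authors' peak caller, beside 3.48e-23 for the other 67. The 2 such peaks at 5 weeks, in Chrm4 and Htr5a, had a median of 8.83e-06 by the same caller, beside 9.65e-16 for the other 84.

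Both kinds of comparison between the ages showed most receptor peaks lower at 5 weeks. In the first, peaks of the 2 lists that overlapped on the same gene and strand were paired 1 to 1, which gave 56 pairs in 35 receptor genes. The log2 enrichment was lower at 5 weeks in 45 of the 56 (80.4%), beside 69.1% of the 22346 pairs over all genes. Of the 56, 17 were weaker by at least 2-fold (30.4%), beside 15.5% of all pairs, and 4 were stronger (7.14%), beside 4.82%. The 17 weaker pairs lay in 12 genes, among them Adra1a, Adra1b, Chrm1, Chrm5, Chrna6, Drd1, Hrh2, Htr1f, Htr2a, Htr5a and Htr7. The 4 stronger pairs lay in Adra1b, Adra2c, Chrnb1 and Htr5a. The median difference was -0.43 over the receptor pairs and -0.31 over all pairs. Relative to that shift of all pairs, 11 receptor pairs in 8 genes were still weaker by 2-fold (19.6%, beside 8.70% of all pairs so centred), and Adra1a, Adra1b, Hrh2 and Htr2a were no longer among them. So centred, 4 receptor pairs were stronger (7.14%), beside 8.01% of all pairs. When each gene counted once, by its strongest pair over both ages, the medians were -0.42 over 35 receptor genes and -0.43 over all genes, so at the level of genes the centre of the receptors lay where that of all genes lay. On that count 9 receptor genes were weaker (25.7%, beside 20.3% of all genes) and 4 stronger (11.4%, beside 5.49%).

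The share of weaker pairs was higher the stronger the peak was at 3 weeks, in receptor genes and in all genes. Of the 13 receptor pairs with a 3-week log2 enrichment of at least 5, 9 were weaker by 2-fold (69.2%), beside 50.2% of all such pairs. Between 4 and 5 the shares were 28.6% of 14 receptor pairs and 23.6% of all, and between 3 and 4 they were 17.4% of 23 and 11.2%. Under 3, no receptor pair of 6 was weaker, beside 0.709% of all. All 4 stronger receptor pairs had a 3-week value between 3 and 4 (17.4% of 23, beside 4.55% of all), so as many pairs were stronger as weaker there. The 3-week value enters both the sorting and the difference here, so these shares are a description.

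**Figure D2:**
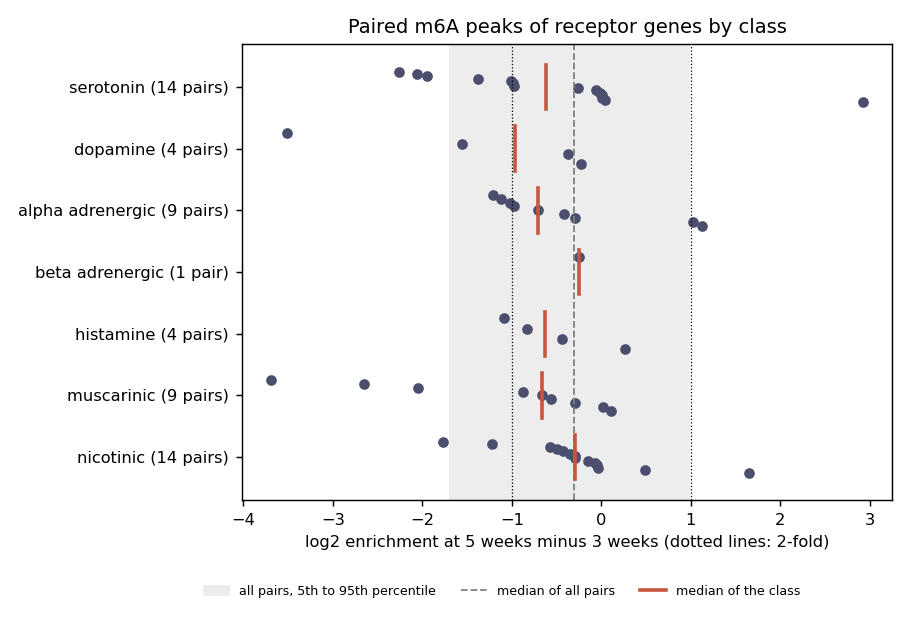
Difference in log2 enrichment, 5 weeks minus 3 weeks (x axis), for 55 paired peaks of receptor genes by class (rows), 1 point per pair, with the class median in red, the median of all pairs dashed and the 5th to 95th percentile of all pairs shaded. Points left of the dotted line at -1 are weaker by 2-fold; the lowest are Chrm1 at -3.69 and Drd1 at -3.52, and the highest is Htr5a at 2.92.

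The second comparison used the authors' table over regions common to both ages, which gives the enrichment of the same region at each age and holds only regions that passed a p threshold in their own comparison of the ages. Regions of little difference are therefore missing from it. It held 36 regions of 23 receptor genes (18 of the 41 genes had none, and 58.2% of all genes with a listed peak were in the table). Of the 36 regions, 23 were weaker at 5 weeks by 2-fold (63.9%), in 18 genes, beside 46.9% of the 12704 regions over all genes, and 1 was stronger (2.78%), beside 10.6%. Lower values by any amount were found in 35 of 36, beside 82% of all regions. The median difference was -1.37 over the receptor regions and -0.95 over all regions. Relative to the median of the table, 12 receptor regions in 9 genes were weaker by 2-fold (33.3%, beside 13.3%). Of the 23 receptor genes in this table, 11 were weaker by 2-fold in both comparisons. The share of all genes weaker in both is not given here, so this count has no background beside it. The comparisons share the same 4 libraries, so the second is not a repeat of the first.

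**Figure D3:**
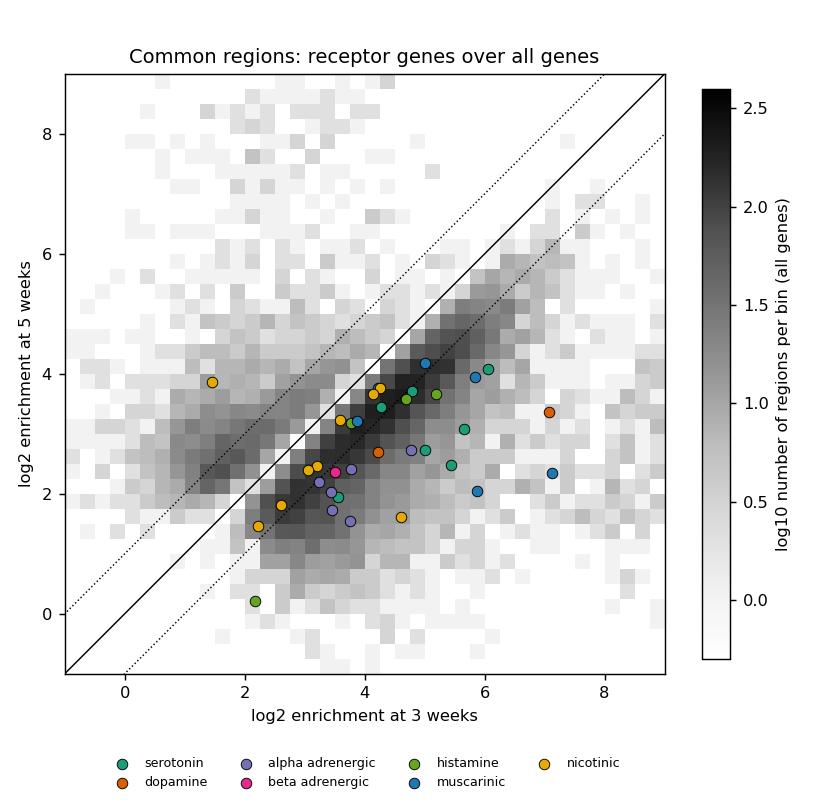
Log2 enrichment at 3 weeks (x axis) and 5 weeks (y axis) of 35 regions of receptor genes in the table over common regions, coloured by class, over the density of all 12704 regions (grey, log10 number per bin; regions beyond the axes are not drawn). The solid line marks equal values and the dotted lines 2-fold; 1 receptor region, of Chrng, lies above the solid line, and the empty band along the solid line shows that regions of little difference are not in the table.

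Among the dopamine receptors, both Drd1 pairs were weaker at 5 weeks, while Drd2 and Drd5 pairs differed by less than 2-fold. The 3-week peak at the Drd1 start codon (chromosome 17, positions 10541334 to 10542073) had a log2 enrichment of 7.10. Its 5-week partner, a shorter peak annotated as 5' UTR, had 3.58, a difference of -3.52. The table over common regions gave 7.07 and 3.37 there. The 3-week peak at the Drd1 stop codon, with 4.21, overlapped 4 peaks at 5 weeks. The difference was -1.55 by the paired one, annotated as 3' UTR, and ranged from -2.08 to -0.30 over the 4. The start codon peak had a single partner, while the call at the stop codon rested on the choice of partner. The common region at the stop codon went from 4.23 to 2.70. In Drd5 the pair in the coding exon went from 4.11 to 3.73, and the 3-week peak of 7.82 had no partner at 5 weeks. Drd2, the Gi-coupled receptor through which dopamine acts on pituitary lactotrophs, had 3.29 at 3 weeks and 3.07 at 5 weeks at its stop codon. The strongest dopamine receptor peak at 5 weeks was an exonic Drd1 peak of 3.91, one of the 4 partners just named.

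Among the serotonin receptors, 5 of 14 pairs were weaker (35.7%, beside 15.5% of all pairs) and 1 was stronger (7.14%, beside 4.82%), and differences of opposite sign stood side by side in Htr5a. Htr5a, a Gi-coupled receptor, had 3 peaks at 3 weeks and 4 at 5 weeks. Its 3' UTR peak (chromosome 4, positions 7444968 to 7445567) went from 5.63 to 3.36 and its exonic peak from 5.04 to 2.98, differences of -2.26 and -2.06. Its start codon peak (positions 7454146 to 7454645 at 3 weeks) went the other way, from 3.84 to 6.76, a difference of 2.92 and the largest toward 5 weeks among the 56 pairs. The caller's adjusted p of that peak was 8.29e-16 at 3 weeks and 3.03e-06 at 5 weeks, so the higher value was the less certain one. The common regions held the weaker sites, 5.66 to 3.08 in the 3' UTR and 5.01 to 2.73 in the exon, and not the start codon.

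Htr1f, also Gi-coupled, had a single peak at each age. It went from 6.11 to 4.16 (chromosome 11, positions 2642901 to 2644150 at 3 weeks), and the 3-week value was the strongest of any serotonin receptor at that age. Its common region gave 6.05 and 4.07. Htr2a, a Gq-coupled receptor of cortical neurons and platelets, went from 5.68 to 4.67 at its stop codon, a difference of -1.01 that just passed 2-fold, and it was not in the table over common regions. That 5-week Htr2a peak spanned 68846 bases and overlapped all 3 of its 3-week peaks. The others had 2.77 in the 5' UTR and 2.92 in an exon, so the 5-week value was not of the stop codon alone. Htr7, a Gs-coupled receptor, went from 3.43 to 2.05 in its 3' UTR, where the common region gave 3.55 and 1.95. Its larger 3-week peak, annotated at the stop codon, had 4.25. It was paired with a 5-week exonic peak of 3.27, a difference of -0.98 just under 2-fold. By its other 5-week partner, a 3' UTR peak of 3.70, the difference was -0.55.

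Htr1a and Htr1d passed 2-fold in the table over common regions alone. Htr1a, the Gi-coupled receptor by which serotonin neurons inhibit themselves, gave 4.79 at 3 weeks and 3.71 at 5 weeks there, and its pair (4.81 and 3.82, difference -0.99) lay just under 2-fold. Htr1d gave 5.44 and 2.48, a difference of -2.97. Its listed peaks, 5.45 at 3 weeks and 2.19 at 5 weeks, lay at different places in the coding exon and formed no pair.

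Htr1b, Htr2c, Htr4 and Htr6 had no pair past 2-fold. The Gs-coupled Htr6, found on neuronal cilia, had 5.37 at both ages at its start codon, the strongest listed pair without a 2-fold difference among the serotonin receptors. Htr2c, through which serotonin reduces feeding by way of ARC Pomc neurons, had 3.90 at 3 weeks and 3.94 at 5 weeks in its exon, and 2.50 and 2.48 in its 3' UTR. Htr1b had 4.36 and 4.30 at its stop codon. Htr4, Gs-coupled, had 2.99 and 2.72 in an exonic peak, a difference of -0.27, and -0.45 by its other 5-week partner. In all, 9 receptor pairs in 6 genes (Chrm3, Chrna4, Chrng, Htr1b, Htr2c and Htr6) lay within 0.1 of no difference. The share of all pairs this close to no difference is not given here, so this count has no background beside it. Htr5b, listed at 3 weeks alone, had 4.22 at its stop codon.

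Among the muscarinic receptors, 3 of 9 pairs were weaker (33.3%, beside 15.5% of all pairs), all in Chrm1 and Chrm5, and none was stronger. Chrm1, the main Gq-coupled muscarinic receptor of cortex and hippocampus, went from 5.87 to 2.18 in an exonic peak (chromosome 1, positions 205580716 to 205580965), a difference of -3.69 and the largest toward 3 weeks among the 56 pairs. At its stop codon it went from 6.54 to 3.89. Both common regions of Chrm1 lay in the exon, with 5.87 and 2.05 in one and 7.13 and 2.34 in the other, the last a difference of -4.79. The exonic pair had adjusted p values of 4.73e-05 at 3 weeks and 0.000305 at 5 weeks from the authors' caller, weak for this set. Chrm5, the Gq-coupled receptor of midbrain dopamine neurons, went from 6.51 to 4.46 at its stop codon, and its 5' UTR peak of 6.87 was the strongest muscarinic peak at 3 weeks. The single Chrm5 peak at 5 weeks spanned both 3-week sites. Its common region at the stop codon gave 5.84 and 3.95.

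Chrm2, the Gi-coupled autoreceptor of cholinergic terminals, and Chrm3, the Gq-coupled receptor of glands and smooth muscle, had no pair past 2-fold. Chrm2 went from 3.33 to 2.45 in its 5' UTR, a difference of -0.88, and from 5.01 to 4.34 at its stop codon. The 3-week stop codon peak of Chrm2 also overlapped another 5-week peak, by which the difference would be -2.69. Chrm3 went from 4.18 to 3.88 at its stop codon, and its 5' UTR peak had 5.11 and 5.13. Chrm4 likewise depended on the choice of partner. Its stop codon peak, 3.93 at 3 weeks, was paired with a 5-week stop codon peak of 4.03, but it also overlapped the 5-week exonic peak of 8.74, by which the difference would be 4.81. The Chrm4 peak of 8.74 had an adjusted p of 1.46e-05 from the authors' caller. Chrm4 overlaps Mdk, and Chrm5 overlaps Aven, on the opposite strand, and the sources used here do not state whether strand was used in the authors' counting.

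Among the alpha adrenergic receptors, Adra1a was weaker throughout, while Adra1b had peaks of both signs and Adra2c was stronger. Adra1a, Gq-coupled like all alpha-1 receptors, went from 4.40 to 3.19 at its stop codon and from 3.30 to 2.18 in its 3' UTR. Its 3 common regions were all weaker, with differences of -2.21 at the start codon, -2.04 at the stop codon and -1.74 in the 3' UTR. A further 3' UTR peak of 5.02 and a start codon peak of 3.56 were listed at 3 weeks alone. Adra1b went from 3.94 to 5.07 in a 3' UTR peak with the same limits at both ages (chromosome 10, positions 28255025 to 28255274), a difference of 1.13. Adjusted p values of this Adra1b peak from the caller were 1.75e-55 and 2.70e-34, strong at both ages. Its peak reaching the start codon went from 3.22 to 2.19, and by its other 5-week partner the difference was -0.68, under 2-fold. The common region of Adra1b in the exon gave 3.44 and 2.03.

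The alpha-2 receptors are Gi-coupled, and noradrenaline neurons use them to limit their own release. Adra2c went from 3.70 at 3 weeks to 4.72 at 5 weeks at its stop codon, a difference of 1.03 that just passed 2-fold, and its exonic peak of 5.07 was the strongest alpha adrenergic peak at 5 weeks. It was not in the table over common regions. Adra2a and Adra2b passed 2-fold in that table alone, with 3.24 and 2.19 for Adra2a and 3.77 and 2.42 for Adra2b, both at the stop codon. Their stop codon pairs differed by -0.98 and -0.71. The 3-week stop codon peak of Adra2b overlapped 5 separate peaks at 5 weeks.

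The beta adrenergic receptors are Gs-coupled. Adrb1, known as the main receptor by which noradrenaline speeds the heart and also present in brain, had the strongest beta adrenergic peak at both ages, 5.28 and 5.03 at its stop codon, a difference of -0.25. By its other 5-week partner, in the 3' UTR, the difference would be -2.62. Its 3' UTR region in the common table was weaker, 3.50 at 3 weeks and 2.37 at 5 weeks.

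The 3 histamine receptors with a peak were listed at both ages, with 5 peaks at each. Hrh2, Gs-coupled, had the strongest histamine receptor peak at both ages, 5.04 and 3.95 at its stop codon, a difference of -1.09. Its common region gave 5.18 and 3.66. Hrh1, the Gq-coupled receptor by which histamine promotes wakefulness, had 4.59 and 3.76 as a pair, under 2-fold, and 4.69 and 3.58 in the common table, just past it. Hrh3, the Gi-coupled autoreceptor of histamine neurons, had 3.81 and 3.37 in its 3' UTR. Its common region in the 5' UTR went from 2.18 to 0.22. A Hrh3 pair of 2.20 and 2.47 joined a 3-week peak that covers this region to a 5-week exonic peak that does not reach it.

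Among the nicotinic subunits, 2 of 14 pairs were weaker (14.3%), both in Chrna6, and 1 was stronger (7.14%), in Chrnb1, near the 15.5% and 4.82% of all pairs. Chrna6, a subunit of the nicotinic receptors on dopamine neurons, went from 3.87 to 2.10 in an exonic peak and from 4.93 to 3.70 at its stop codon. Its common region in the exon gave 4.60 and 1.61, a difference of -2.99. Chrnb3, the subunit that joins Chrna6 in the same receptors and lies near it on chromosome 16, went from 3.32 to 2.75, under 2-fold. Chrnb1, known as the beta subunit of the muscle receptor, went from 3.70 to 5.35 at its stop codon (chromosome 10, positions 54504340 to 54505138 at 3 weeks), a difference of 1.65, and 5.35 was the strongest nicotinic peak at 5 weeks. Chrnb1 overlaps Zbtb4 on the opposite strand.

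The subunits of the most common brain receptors had no pair past 2-fold. Chrna4 and Chrnb2 together form the high-affinity nicotine receptor of brain. Chrna4 had 3 pairs with differences between -0.15 and -0.03, and its strongest peak had 4.10 at 3 weeks and 4.06 at 5 weeks. That 3-week peak also overlapped another 5-week peak, by which the difference would be -1.83. Chrnb2 pairs differed by -0.30 and -0.49. Chrna7, which forms a receptor by itself, went from 3.75 to 3.32. Chrna3 went from 4.41 to 4.90, under 2-fold. All 6 common regions of Chrna4 and Chrnb2 were lower at 5 weeks, by 0.35 to 0.80 on the log2 scale, and none by 2-fold. The strongest nicotinic peak at 3 weeks was that of Chrna5, 6.18, and Chrna2 had 5.80 and Chrnb4 4.05, all 3 listed at that age alone.

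Chrng, known as a subunit of the fetal muscle receptor, carried the only stronger common region of a receptor gene, and its identity is uncertain. That 3' UTR region (chromosome 9, positions 87914260 to 87914482) went from 1.46 to 3.87, and its 5-week peak of 4.04 had no partner in the 3-week list. The listed Chrng gene model spans 36398 bases and carries a translation initiation factor annotation. In RefSeq, Chrng lies between Chrnd and Eif4e2, which encodes a cap-binding translation factor, and neither neighbour had a listed peak. Whether the Chrng peaks belong to Chrng transcripts was not tested. Without Chrng, 23 of 34 common regions were weaker, none was stronger, and the pair counts remained 17 weaker and 4 stronger.

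By signalling class, Gq-coupled receptors had 7 weaker pairs of 14 (50.0%) and Gs-coupled receptors 5 of 10 (50.0%), beside 15.5% of all pairs. Gi-coupled receptors had 3 weaker pairs of 18 (16.7%) and nicotinic channels 2 of 14 (14.3%), both near the share of all pairs. The 4 stronger pairs were 1 Gq, 2 Gi and 1 channel pair. In the common table the weaker regions were 8 of 9 (88.9%) for Gq, 6 of 7 (85.7%) for Gs, 8 of 11 (72.7%) for Gi and 1 of 9 (11.1%) for channels, beside 46.9% of all regions. Median pair differences were -0.92 for Gq, -1.03 for Gs, -0.50 for Gi and -0.30 for the channels. The classes hold 8 to 11 genes with a pair each, the pairs of a gene share its transcript, and the difference between classes was not tested.

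Receptor peaks lay at stop codons more often than any other annotated site at 3 weeks, and most often in exons at 5 weeks. At 3 weeks, 34.7% of 75 receptor peaks lay at a stop codon (95% Wilson interval 24.9% to 45.9%), beside 24.6% of all peaks (24.1% to 25.1%). At 5 weeks the share was 24.4% of 86 (16.6% to 34.5%), beside 22.9% (22.5% to 23.4%). The intervals of the 2 ages overlap, and they cover counting error over peaks only. The 3' UTR held 21.3% of receptor peaks at 3 weeks and 30.2% at 5 weeks, and exons away from start and stop codons held 22.7% and 32.6%. Stop codon peaks were also the strongest kind by median, 4.31 at 3 weeks and 3.89 at 5 weeks in receptor genes. Of the 24 receptor pairs at a 3-week stop codon, 9 were weaker (37.5%), beside 20.6% of all such pairs.

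**Figure D4:**
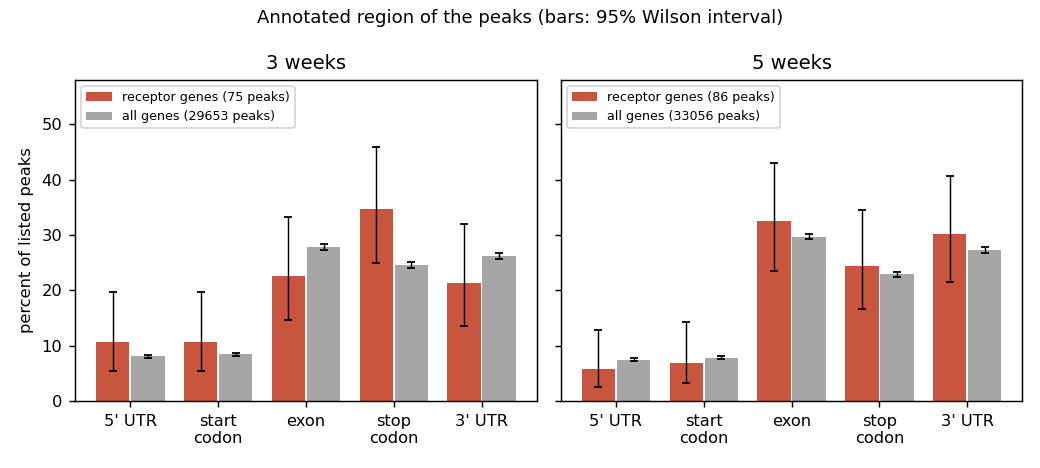
Percent of listed peaks (y axis) by annotated region (x axis) for receptor genes (red) and all genes (grey) at 3 weeks (left) and 5 weeks (right), with 95% Wilson intervals as error bars. Stop codons hold 34.7% of receptor peaks at 3 weeks and 24.4% at 5 weeks, with overlapping intervals; the grey bars include intronic and noncoding peaks in their total.

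Some peaks had no counterpart at the other age. At 3 weeks 15 of 75 receptor peaks overlapped no 5-week peak of the gene (20.0%, beside 17.2% of all peaks), and their median log2 enrichment was 4.22, beside 3.91 for the rest. At 5 weeks 10 of 86 overlapped no 3-week peak (11.6%, beside 25.7% of all peaks), with a median of 2.20, beside 3.24. The unmatched receptor peaks of 3 weeks thus had a slightly higher median than the matched ones, and those of 5 weeks a lower one. The 5-week ones lay mostly in the 3' UTRs of genes that also had other peaks, Htr2a, Chrnb1, Drd2 and Adra2a among them.

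The genes that make, carry and break down the same transmitters lay near all genes in their differences. Of 25 such genes, 13 were listed at 3 weeks and 15 at 5 weeks, and of the 11 with a pair 3 were weaker by 2-fold and none was stronger, beside 20.3% and 5.49% of all genes by their leading pair. Their median difference was -0.44, beside -0.43 over all genes. Slc5a7, the choline transporter of cholinergic terminals, went from 5.16 to 3.56. Slc29a4, a plasma membrane monoamine transporter, went from 4.69 to 3.50, and Ddc, the decarboxylase that completes dopamine and serotonin synthesis, from 3.09 to 1.92. Hnmt went from 4.19 to 3.23 at its stop codon and Th, the rate-limiting enzyme of dopamine synthesis, from 4.57 to 3.88, both under 2-fold. Chat and Slc18a1 were listed at 3 weeks alone, 2 of 13, beside 5.2% of all genes listed at 3 weeks. Gch1, Hdc, Maoa and Slc22a2 were listed at 5 weeks alone, 4 of 15, beside 1252 of the 14036 genes listed at 5 weeks. In the table over common regions, 5 of 9 regions of these genes were weaker by 2-fold (beside 46.9% of all regions). None was stronger (beside 10.6%). Dbh, Pnmt, Slc18a3, Slc6a2, Slc6a3, Slc6a4, Tph1 and Tph2 had no listed peak.

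Markers of the dissected tissue also differed in which genes were listed. For scale, 5.2% of all genes listed at 3 weeks and 1252 of the 14036 listed at 5 weeks were listed at that age alone. By 2-fold, 46.9% of all common regions and 20.3% of all genes by leading pair were weaker, and 10.6% and 5.49% were stronger. Of 12 markers of ARC neurons, the 3-week list held 5 and the 5-week list 8, with Pomc, Gal and Tac3 at 5 weeks alone and Agrp, Ghrh, Kiss1 and Slc6a3 at neither age. By leading pair, 1 of the 5 ARC markers with a pair was weaker and 1 stronger. Of the 3 common regions of ARC markers, 1 was weaker and 1 stronger. Of 6 markers of other hypothalamic nuclei, the lists held 2 and 5, with Avp, Oxt, Hcrt and Pmch at 5 weeks alone and Trh at 3 weeks alone. The only leading pair of these 6 markers was higher by 1.65 at 5 weeks, and their 1 common region was stronger. Of 4 markers of the ventromedial nucleus, 2 and 3 were listed, and the 2 with a pair had a median difference of -1.47. Of 6 pituitary hormone genes, Lhb had a peak at 3 weeks alone and the others none. Choroid plexus markers had 1 of 4 genes listed, with a leading pair lower by 5.13 at 5 weeks and its 1 common region weaker. Tanycyte and ependymal markers had 2 of 4 listed at both ages, with 1 of 2 leading pairs and 3 of 5 common regions weaker. Of 3 endothelial markers 2 were listed at both ages, with neither leading pair past 2-fold, while both of their common regions were weaker. All 4 astrocyte, 4 oligodendrocyte and 4 microglia markers were listed at both ages, with no leading pair past 2-fold. Of 6 astrocyte common regions 1 was weaker and 1 stronger, and none of 7 oligodendrocyte and 3 microglia regions passed 2-fold. These lists hold peaks and not transcript levels, so the share of neighbouring nuclei in each pool was not measured, and its part in the receptor differences was not tested.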

How the data were processed

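Poly(A) RNA of ARC tissue was measured by MeRIP-seq in 4 libraries, 1 input and 1 IP per age, each from a pool of 3 rats; depth per sample is unknown because no counts are held, so intervals cover counting error over peaks. The submitters' processing notes name fastp 0.19.4 (trimming) and HISAT2 2.0.4 (alignment); no source used here names the peak caller. Although those notes list a human build, the chromosomes and identifiers are rat ones, and coordinates are therefore printed as listed (starts counted from 1) with no build. The authors' deposited peak lists give the log2 enrichment of IP over input and the p-value and adjusted p-value of each peak, and the authors' deposited table over common regions gives the log2 enrichment at each age. Its fold changes, p-values and calls between the ages are the authors' findings and were not used.

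Members and gene lists were chosen with earlier results of these data known. Peaks of the 2 ages were paired by gene, strand and at least 1 shared base, each the other's best partner, the same annotated region first and then the larger overlap, a choice made after seeing the data. Weaker and stronger mean at least 2-fold. Up to 4 genes of a further list are named by size of difference, with Th and genes listed at 1 age alone or at neither named besides. Values are given for every gene with a pair or common region past 2-fold and for the strongest peak of each class. A result this rule would name is not reported here and is left off the plots of genes, pairs and regions; all counts still include it. Receptor names and neighbours came from RefSeq (GRCr8). Alternatives covered overlap, fold, centring, peak strength, value per gene and Chrng. The pairing code was tested on simulated peaks with at most 1 possible partner each. That simulation could not test the choice among several partners. No sequence or motif was searched, as no genome was used. Python 3.11.15, numpy 2.4.6, pandas 2.3.3, scipy 1.17.1 and matplotlib 3.10.9 were used.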

Additional observations from a re-analysis of the deposited data

How the results depend on the processing

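The counts depended on the fold and on the scaling between ages. Of the 17 weaker pairs, 9 remained at 3-fold (16.1% of receptor pairs, beside 5.66% of all pairs) and 11 after differences were centred on the median of all pairs (19.6%, beside 8.70%), and 29 of 80 were weaker when every overlapping pair counted. The 4 stronger pairs became 2 at 3-fold, 8 with every overlapping pair, and 2 when adjusted p had to be under 1e-10 at both ages. The 11 pairs still weaker after centring lay in 8 genes, among them Chrm1, Chrm5, Chrna6, Drd1, Htr1f, Htr5a and Htr7. Of the 23 weaker common regions, 15 remained at 3-fold (41.7%, beside 20.0%) and 12 after centring on the median of the table (33.3%, beside 13.3%); the 1 stronger region became 0 without Chrng. The median difference over receptor genes, -0.42, was -0.67 for pairs at the stop codon and reversed to 0.0155 after centring on the median of all genes. Counting every overlapping pair, omitting Chrng and the limit of 1e-10 were chosen after seeing the data, as was pairing by the largest overlap whatever the region, which gave 16 weaker and 5 stronger pairs.

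By another 5-week partner, 2 weaker pairs (Adra1b and Drd1) would lie under 2-fold, 4 pairs under 2-fold (Adra2b, Adrb1, Chrm2 and Chrna4) would be weaker and 1 (Chrm4) stronger. The other 28 values over the alternatives moved by less than 1.5 times or kept their direction. No paired analysis was possible because each age has 1 library of each kind and no replicate numbers are shared. Without counts, weak peaks in rare transcripts cannot be told from missing ones.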

Other observations

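Of 11 genes whose proteins assemble or bind nicotinic receptors, 9 had a peak at both ages, and Musk and Rapsn, which act at the neuromuscular junction, had none at either. By leading pair, 1 of the 9 was weaker by 2-fold and 0 were stronger, beside 20.3% and 5.49% of all genes, and the median difference was -0.54, beside -0.43. Agrn, which clusters receptors at the neuromuscular junction, went from 4.89 to 3.33 in its 5' UTR. Lypd1, a membrane-anchored modulator of nicotinic receptors, went from 4.81 to 3.96, Tmem35a, a chaperone of nicotinic receptors, from 4.55 to 3.84, and Lypd6b from 3.79 to 3.11, all under 2-fold. In the table over common regions, 5 of 12 regions in 8 of these genes were weaker by 2-fold and none was stronger, beside 46.9% and 10.6% of all regions.

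Chat, which makes acetylcholine and was listed at 3 weeks alone, had a common region of 4.89 at 3 weeks and 1.47 at 5 weeks. That region was annotated as an exon of a noncoding RNA. Hdc, which makes histamine, had 0 peaks at 3 weeks and 3 at 5 weeks.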
